A study of Mus musculus with 43 samples.

Results

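7SK is a non-coding RNA that the tables list as Rn7sk, on the entry Rn7sk-201. It was chosen by that name, and it was 1 of the 4890 RNAs listed for epididymis tissue, 1 of 3178 for epididymal fluid and 1 of 4323 for sperm. The study sequenced small RNAs of WT mice and of mice lacking Rnase9-12, a cluster of genes for secreted RNase A family proteins of the epididymis, to see what the deletion does to small RNAs. All mice were FVB and 8 to 12 weeks old, and the KO line carried a CRISPR-Cas9 deletion of the locus made with a pair of guides. Tissue was taken from the caput, corpus and cauda, which are the first, middle and last segments of the epididymis, in 3 libraries per segment for WT mice and, for KO mice, 3 of caput, 2 of corpus and 3 of cauda. Luminal fluid of the same segments had 3 WT and 3 KO libraries each, and cauda sperm had 4 WT and 4 KO libraries.

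RNA of every library had been treated with PNK, which opens RNA ends left by RNase A type cleavage to sequencing. Tissue libraries were made by ARM-seq and the fluid and sperm libraries by OTTR-seq, so levels were compared within a table and not between tables. Fluid had been cleared of sperm, vesicles and cell debris, and each fluid or sperm library held the RNA of 3 mice. For tissue, the number of mice per library was not stated. Rnase9-12 transcripts were not among the counted RNAs, so the genotype could not be checked from these counts. The section tag read cauda for 7 libraries whose titles read caput (1 of WT caput tissue and all 6 of caput fluid), and these were grouped by title.

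7SK is made by RNA polymerase III and stays mostly in the nucleus, where the proteins LARP7 and MEPCE hold it in a stable particle. Through HEXIM proteins the particle keeps the kinase P-TEFb inactive, and P-TEFb released from it lets paused RNA polymerase II go on to make mRNA. HEXIM proteins recognise GAUC motifs in the first hairpin of the RNA. 7SK is found in nearly all cell types.

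Rn7sk (ENSMUSG00000065037.1) lay on the minus strand of GRCm38 chr9:78175303-78175633. The gene was a single stretch of 331 bases with a GC content of 58.01%, annotated as miscellaneous RNA, and 0 other annotated genes overlapped it on either strand. The transcript held 3 GATC motifs, starting at bases 13, 42 and 64, all in its first 80 bases, which are shown here as DNA letters with these motifs in capitals.

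Rn7sk bases 1 to 80: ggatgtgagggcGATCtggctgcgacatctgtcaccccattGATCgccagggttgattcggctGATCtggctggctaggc

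The mouse annotation also held 149 other miscellaneous RNA genes similar to Rn7sk, of which 114 appeared in the tissue table, 87 in the fluid table and 111 in the sperm table. None of them had more counts than Rn7sk in any library. One copy, Gm24447 (ENSMUSG00000065911.1, plus strand of chr15:93234363-93234700, 338 bases), had the same letters as Rn7sk from base 1 to base 241 and diverged from it after that. The 3′ ends of both RNAs are printed because the break between them splits Rn7sk into a shared 5′ part and a 3′ part that Gm24447 lacks, with the bases past the break in capitals.

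Rn7sk bases 202 to 331: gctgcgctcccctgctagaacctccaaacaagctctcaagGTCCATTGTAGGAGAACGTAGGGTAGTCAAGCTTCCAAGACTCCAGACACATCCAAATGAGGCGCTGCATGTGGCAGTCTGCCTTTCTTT

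Gm24447 bases 202 to 338: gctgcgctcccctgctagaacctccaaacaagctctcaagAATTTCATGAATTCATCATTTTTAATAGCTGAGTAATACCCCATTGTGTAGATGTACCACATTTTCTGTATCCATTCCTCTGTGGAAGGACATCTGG

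Counting gave a read to every feature with an equally good match, so a read lying within bases 1 to 241 could be counted on both RNAs. A read reaching past base 241 no longer matched Gm24447. The counts listed on Gm24447 are called the shared 5′ part of 7SK here, and the Rn7sk counts beyond them the rest. The rest holds the reads that touch the last 90 bases, and it can also hold 5′ reads, since a read with over 100 matches need not have been counted on every copy. Transcripts of Gm24447 itself cannot be told apart from 7SK in the shared part.

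7SK was among the more abundant RNAs in each table. By mean level among Ensembl-named RNAs it had rank 47 of 2104 (tissue), 49 of 1057 (fluid) and 41 of 1924 (sperm). Between 12079 and 90218 reads were counted on it per tissue library, between 490 and 12131 per fluid library and between 588 and 41802 per sperm library. The lowest and highest summed counts of a library were 30142156 and 249732714 (tissue), 1948718 and 12320922 (fluid) and 1134840 and 62128314 (sperm). Set side by side without a test, 7SK had 221 to 596 CPM (the counts-per-million unit) of unscaled summed counts in tissue (median 347), 55.2 to 1264 in fluid (median 335) and 333 to 801 in sperm (median 645). Entries of tRNA fragments made up 73.6 to 87.9% of the fluid counts but 0.690 to 5.20% of the tissue counts and 1.51 to 8.39% of the sperm counts. A read can be counted on several entries, so these percentages and the CPM of summed counts are not shares of reads. The study took its own class percentages from only the primary match of each read. Levels below are CPM after TMM scaling, a correction of library size by the bulk of RNAs.

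In fluid 7SK was higher in KO than in WT libraries of the caput and corpus, with no overlap in either segment. The test over all RNAs passed in the corpus only. From these same libraries the study had itself reported Rn7sk and Rny3 fragments as raised in KO fluid, among significantly altered small RNAs. It pointed to a corpus fluid plot and to caput fluid counts. The fluid comparisons of both RNAs are therefore not independent evidence of a direction. The mean level fell from caput to cauda in both genotypes.

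In caput fluid the WT libraries held 367, 508 and 376 CPM of 7SK. The KO libraries held 1054, 999 and 738 CPM. Every KO library was above every WT library. The means were 417 ± 79.1 CPM in WT and 930.0 ± 169 CPM in KO (SD, n = 3 each), a ratio of 2.23. By edgeR's quasi-likelihood test the log2 fold change of KO over WT was 1.16 (SE 0.424, 95% CI 0.28 to 2.04), and the Benjamini-Hochberg adjusted p of 0.278 did not pass the threshold of 0.05. Of the 2023 RNAs tested, 0 (0%) were called in this segment by edgeR (adjusted p under 0.05 with a log2 fold change beyond 1 in either direction), although 214 had an unadjusted p under 0.05, and DESeq2 called 7 higher and 2 lower, without 7SK. 7SK had rank 158 of 2023 by log2 fold change from the highest.

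In corpus fluid the WT libraries held 138, 377 and 265 CPM. The KO libraries held 759, 859 and 554 CPM, and again none overlapped with WT. The means were 260 ± 120 CPM in WT and 724 ± 156 CPM in KO (SD, n = 3 each). The log2 fold change was 1.48 (SE 0.428, 95% CI 0.59 to 2.36, adjusted p = 0.0201 by edgeR's quasi-likelihood test), so 7SK rose in KO corpus fluid. Many RNAs did so here, since 19.7% of the 2023 tested were called, 273 higher (13.5%) and 126 lower, and 7SK had rank 412 by log2 fold change. Every KO library of corpus fluid was shallower than every WT library, with 1948718 to 3373869 summed counts against 3989262 to 10172577. Depth and genotype therefore cannot be told apart in this comparison.

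The corpus call depended on how libraries were scaled and on single libraries. When tRNA and rRNA entries were left out of the TMM factors, the log2 fold change of 7SK was 0.65 beside a median of −0.80 over all RNAs (0.10 in the main fit), the adjusted p was 0.216, and 140 RNAs were called higher and 524 lower. Scaling by summed counts gave 1.48 with an adjusted p of 0.0537. Leaving out WT replicate 1, WT replicate 3, KO replicate 1 or KO replicate 2 also ended the call, with log2 fold changes of 1.17, 1.41, 1.38 and 1.25 and adjusted p of 0.116, 0.0765, 0.0806 and 0.101 in turn. Over all other settings of this comparison the adjusted p ran from 0.00284 to 0.216 in edgeR or DESeq2, and the sign stayed positive.

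In cauda fluid the WT libraries held 75.9, 243 and 83.3 CPM. The KO libraries held 255, 240.0 and 257 CPM. WT replicate 2 lay among the KO libraries, whereas the other WT libraries lay well below them. The means were 134 ± 94.6 CPM in WT and 250.5 ± 9.16 CPM in KO (SD, n = 3 each). KO over WT on the log2 scale was 0.90 (SE 0.423, 95% CI 0.02 to 1.78) with an adjusted p of 0.514 by edgeR's quasi-likelihood test, and 0 of 2023 RNAs (0%) were called here, against 188 at an unadjusted p under 0.05 and 42 called by DESeq2 (32 higher and 10 lower). Without WT replicate 2 the log2 fold change was 1.76 and the adjusted p 0.0403, within a range of 0.0403 to 0.941 over the libraries left out.

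No difference of the KO effect between segments of fluid passed the test. Its log2 difference was 0.32 for corpus against caput, −0.26 for cauda against caput and −0.58 for cauda against corpus, with adjusted p of 0.862, 0.876 and 0.666 for the interaction terms in edgeR, and 1.83%, 0% and 7.37% of RNAs were called for these differences.

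**Figure D1:**
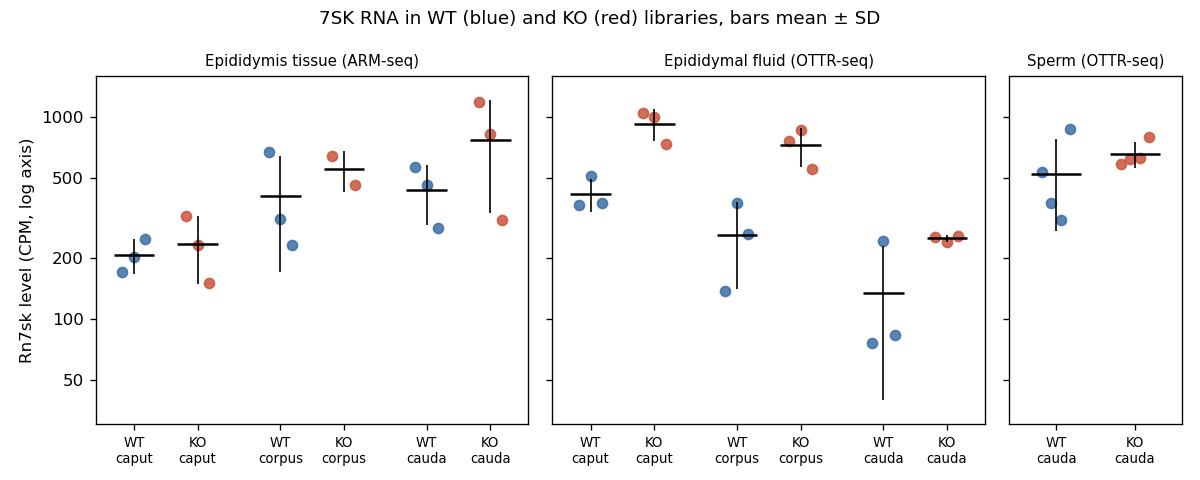
7SK level in every library, in TMM-scaled CPM on a log axis, by source, segment and genotype, with points for libraries and bars for the mean and SD. In caput and corpus fluid the KO libraries (738 to 1054 and 554 to 859 CPM) lay above all WT libraries (367 to 508 and 138 to 377 CPM), and elsewhere the genotypes overlapped.

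Ordered by mean level in fluid, KO caput came first (930.0 CPM), then KO corpus (724), WT caput (417), WT corpus (260), KO cauda (250.5) and WT cauda (134). Among neighbours in this order only KO corpus and WT caput did not overlap.

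7SK fell from caput to cauda fluid in both genotypes. The log2 fold change of cauda over caput was −1.64 in WT (SE 0.430, 95% CI −2.53 to −0.74, adjusted p = 0.00848) and −1.89 in KO (SE 0.433, 95% CI −2.79 to −0.99, adjusted p = 0.00372), both by edgeR's quasi-likelihood test. In WT, 312 of the 2023 RNAs were called lower (15.4%) and 196 higher, and in KO 293 were called lower (14.5%) and 232 higher. TMM from RNAs other than tRNA and rRNA entries turned these splits to 137 lower and 364 higher in WT and 184 lower and 382 higher in KO, and under it 7SK stood at −1.13 in WT (adjusted p = 0.0538) beside a median of 0.43 over all RNAs and at −1.53 in KO (adjusted p = 0.0154) beside a median of 0.31. Over all other settings the adjusted p ran from 4.83e-06 to 0.178 in WT and from 7.34e-07 to 0.0386 in KO. The WT call was also lost without WT caput replicate 2 (−1.25, adjusted p = 0.0968) or WT cauda replicate 3 (−1.17, adjusted p = 0.0988), whereas the KO call held without any 1 library.

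The steps between neighbouring segments were smaller. Corpus against caput gave −0.68 in WT (adjusted p = 0.281) and −0.36 in KO (adjusted p = 0.593) in edgeR, where 17.7% and 19.4% of RNAs were called. Cauda against corpus gave −0.95 in WT (adjusted p = 0.155) and −1.53 in KO (SE 0.429, adjusted p = 0.0548), where 2.17% and 2.97% of RNAs were called. In KO, 7SK passed the threshold in DESeq2 (−1.44, adjusted p = 0.0105), and over all other settings the adjusted p ran from 0.00180 to 0.242.

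MicroRNA entries known as cell type markers were summed in the same fluid libraries. The 5 of 5 listed epithelial entries (the miR-200 family) summed to 103 to 182 CPM in WT caput fluid and 241 to 298 CPM in KO caput fluid. In corpus fluid they summed to 27.1 to 62.6 CPM in WT and 87.5 to 134 CPM in KO. They were thus higher in KO without overlap in the segments where 7SK was, and in cauda fluid, at 75.1 to 132 CPM in WT and 76.4 to 182 CPM in KO, they overlapped. Germ cell entries (12 of 14 listed) rose along the fluid, from 3.06 to 5.24 CPM in WT caput to 27.2 to 52.2 CPM in WT cauda, and were 5.84 to 18.7 CPM in WT corpus and 22.1 to 29.8 CPM in KO corpus. Leukocyte entries (2 of 3 listed) were 6.44 to 9.98 CPM in WT caput fluid and 11.8 to 17.5 CPM in KO caput fluid. In corpus fluid the leukocyte entries overlapped, at 13.0 to 17.5 CPM in WT and 16.8 to 70.0 CPM in KO. Germ cell entries overlapped in caput fluid, at 4.12 to 5.28 CPM in KO. Smooth muscle entries overlapped between genotypes in caput fluid (76.8 to 139 and 99.5 to 189 CPM) and corpus fluid (90.6 to 168 and 127 to 267 CPM). Red cell entries also overlapped in both segments. The part of these lists in the 7SK differences was not tested. Fluid had been cleared of sperm, vesicles and cell debris, so these are levels of RNA outside cells. RNA that came from a larger number of cells and more 7SK RNA per cell of origin cannot be told apart in them.

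In tissue the level of 7SK did not pass the test between KO and WT in any segment, and it rose from caput to cauda in KO mice, the opposite direction to fluid. WT caput tissue held 171, 202 and 250 CPM. KO caput tissue held 325, 231 and 151 CPM, which spread over the whole WT range and beyond it on both sides. The log2 fold change was 0.18 (SE 0.470, 95% CI −0.81 to 1.18, adjusted p = 0.9996 by edgeR's quasi-likelihood test), and it was −0.08 with libraries scaled by summed counts. In caput tissue edgeR called 0 of 3488 RNAs (0%), 34 had an unadjusted p under 0.05, and DESeq2 called 0.

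In corpus tissue the WT libraries held 673, 313 and 233 CPM and the KO libraries 639.7 and 462 CPM. Both KO libraries lay within the WT range. KO over WT gave 0.44 on the log2 scale (SE 0.521, adjusted p = 0.880 in edgeR), and from replicates 1 and 2 alone it was −0.01. Here too edgeR called 0 of 3488 RNAs (0%), with 279 at an unadjusted p under 0.05, and DESeq2 called 24, all lower.

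In cauda tissue the WT libraries held 565, 461 and 282 CPM and the KO libraries 1185, 826 and 310.2 CPM. KO replicates 1 and 2 were above all WT libraries, and KO replicate 3 lay within the WT range. The log2 fold change was 0.83 (SE 0.473, 95% CI −0.17 to 1.83, adjusted p = 0.442 by edgeR's quasi-likelihood test), while 30 of 3488 RNAs (0.860%) were called, 29 of them lower. It ran from 0.05 to 1.19 over the libraries left out, the lowest without KO replicate 1. With the replicate number as a block it was 0.68 (adjusted p = 0.140), and the called RNAs became 121 lower and 179 higher, against 29 and 1. Over all other settings of this comparison the log2 fold change ran from 0.14 to 0.97 and the adjusted p from 0.123 to 0.9998. The size thus depended on scaling. By means of unscaled summed counts KO over WT was 0.15 on the log2 scale (298 to 533 CPM in WT, 326 to 596 in KO). By summed counts outside tRNA and rRNA entries it was 0.14. The KO effect on 7SK differed between segments of tissue by 0.26 to 0.65 on the log2 scale in edgeR, with adjusted p of 0.899 or more.

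Along the KO tissue, 7SK rose from caput to cauda with a log2 fold change of 1.71 (SE 0.483, 95% CI 0.69 to 2.74, adjusted p = 0.0138 by edgeR's quasi-likelihood test), where 598 of 3488 RNAs were called higher (17.1%) and 300 lower. In WT tissue the same contrast gave 1.07 (SE 0.475, 95% CI 0.06 to 2.08, adjusted p = 0.121), with 549 RNAs called higher (15.7%) and 254 lower. With the replicate number as a block the WT value was 0.96 with an adjusted p of 0.0261, which missed the fold limit of the call. The difference between the genotypes, 0.65, did not pass the test given above. WT corpus against WT caput gave 0.97 (adjusted p = 0.233, 11.8% of RNAs called) and KO corpus against KO caput 1.22 (adjusted p = 0.346, 0.631% called). Cauda and corpus differed by 0.10 in WT (adjusted p = 0.945, 3.41% called) and by 0.49 in KO (adjusted p = 0.665, 12.3% called).

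The size of the rise moved with the scaling. By summed counts the KO cauda was 0.73 above the KO caput (adjusted p = 0.142) beside a median of −0.73 over all RNAs, and 391 RNAs were called higher and 641 lower. With TMM from RNAs other than tRNA and rRNA entries it was 1.02 (adjusted p = 0.0625) beside a median of −0.56. The KO call was also lost without KO caput replicate 3 (1.46, adjusted p = 0.0791) or KO cauda replicate 1 (1.12, adjusted p = 0.131), and over all other settings the adjusted p ran from 8.58e-05 to 0.174.

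Smooth muscle entries (2 of 2 listed, miR-143 and miR-145a) moved the same way from caput to cauda tissue, summing to 20.6 to 40.3 CPM and 107 to 215 CPM. In the corpus they summed to 44.2 to 87.5 CPM in WT. In KO corpus they summed to 24.3 to 29.5 CPM, within the KO caput range of 23.5 to 39.8 CPM. 7SK in KO corpus tissue (462 to 640 CPM) lay above KO caput tissue (151 to 325 CPM). Germ cell entries (7 of 14 listed) summed to 0.0867 to 0.324 CPM in KO caput and 0.477 to 1.58 CPM in KO cauda tissue, without overlap, and their WT ranges overlapped. The part of both lists in the rise of 7SK was not tested. Ordered by mean level, KO cauda came first (774 ± 440 CPM), then KO corpus (551 ± 125), WT cauda (436 ± 143), WT corpus (406 ± 235), KO caput (236 ± 87.4) and WT caput (208 ± 39.9), and all neighbours overlapped.

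**Figure D2:**
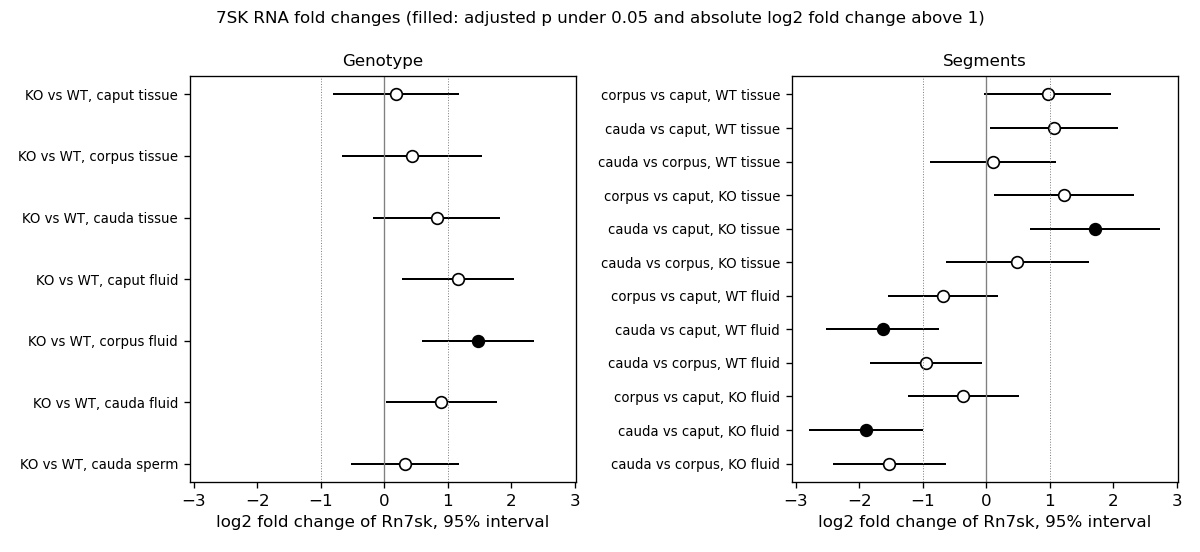
Log2 fold change of 7SK with its 95% confidence interval from edgeR for KO over WT in each segment and for the segments against each other, on a linear axis with a line at 0, dotted lines at −1 and 1 and filled points for calls. Of these, corpus fluid KO over WT (1.48), KO tissue cauda over caput (1.71) and cauda over caput in WT (−1.64) and KO fluid (−1.89) were called.

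In cauda sperm the WT libraries held 534, 377, 311 and 876 CPM and the KO libraries 586, 617, 629 and 796 CPM. WT replicate 4 was the highest of all and the other WT libraries were below every KO library. Depth was uneven between the genotypes. WT replicates 2, 3 and 4 and KO replicate 4 had 1134840 to 3618739 summed counts, and the other sperm libraries 42764979 to 62128314. The part of depth in this order was not tested. The means were 524 ± 252 CPM in WT and 657 ± 94.5 CPM in KO (SD, n = 4 each). The log2 fold change was 0.32 (SE 0.394, 95% CI −0.53 to 1.18, adjusted p = 0.763 by edgeR's quasi-likelihood test), and it ranged from 0.05 to 0.74 over the libraries left out. In sperm edgeR called 0 of 2480 RNAs (0%), 434 had an unadjusted p under 0.05, and DESeq2 called 140, of which 135 were lower. Red cell entries (2 of 2 listed) were at 55.4 and 33.8 CPM in KO replicates 2 and 3 and at 1.63 to 8.92 CPM in the other sperm libraries, and 7SK in those libraries, at 617 and 629 CPM, lay between the other KO libraries.

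The share of Rn7sk counts also listed on Gm24447, a lower limit on the share of reads inside bases 1 to 241 if Gm24447 itself adds none, was lower in tissue than in fluid or sperm (15.1 to 52.2% of Rn7sk counts in tissue libraries), though library preparation and source cannot be told apart there. The widest exact (Clopper-Pearson) 95% interval of any library was 51.2 to 59.3%, in WT sperm replicate 3, and it covers counting error only.

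In caput fluid the share was 62.1, 63.0 and 67.7% in WT and 53.3, 54.7 and 56.5% in KO. In corpus fluid it was 65.2, 76.7 and 62.0% in WT and 58.1, 61.5 and 55.6% in KO. Every KO library was below every WT library in both segments. The mean share of KO less WT was −9.44 percentage points in caput fluid (64.3 ± 3.03% in WT, 54.8 ± 1.62% in KO, SD, n = 3 each) and −9.57 points in corpus fluid (68.0 ± 7.75% and 58.4 ± 2.94%). Each had a 2-sided exact permutation p of 0.1, the smallest that 3 against 3 libraries allow, and 0.475 after Benjamini-Hochberg adjustment over the 19 comparisons of this share.

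In cauda fluid the share was 72.0, 66.1 and 72.7% in WT and 67.3, 79.6 and 74.9% in KO. Here the genotypes overlapped, and KO was 3.68 points higher (exact permutation p = 0.4). Sperm had shares of 62.9, 64.7, 55.3 and 57.8% in WT and 62.6, 61.5, 60.8 and 57.8% in KO, with means of 60.2 ± 4.37% and 60.7 ± 2.05% (SD, n = 4 each, exact permutation p = 0.914, smallest possible 0.0286).

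Along the KO fluid the share was 19.1 points higher in cauda than in caput and 15.5 points higher in cauda than in corpus, with no overlap and an exact permutation p of 0.1 for each (0.475 after adjustment). In WT fluid cauda exceeded caput by 5.97 points (exact permutation p = 0.2). Among libraries of the same replicate number, cauda had the higher share in 3 of 3 WT and 3 of 3 KO numbers of fluid.

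Tissue showed the opposite order. The share was 30.8, 36.7 and 47.3% in WT caput, 20.9, 25.4 and 49.99% in WT corpus and 18.8, 19.0 and 38.5% in WT cauda. KO tissue had 32.3, 29.8 and 52.2% in the caput, 23.9 and 29.3% in the corpus and 15.1, 15.7 and 39.5% in the cauda. Cauda was below caput in 3 of 3 WT and 3 of 3 KO replicate numbers. The mean difference was −12.8 points in WT and −14.7 points in KO, with an exact permutation p of 0.3 for each, since the replicate 3 libraries were the highest of their group wherever there was one. In every tissue segment the share overlapped between KO and WT, and the smallest p that these group sizes allow is 0.1, so no difference could have passed.

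**Figure D3:**
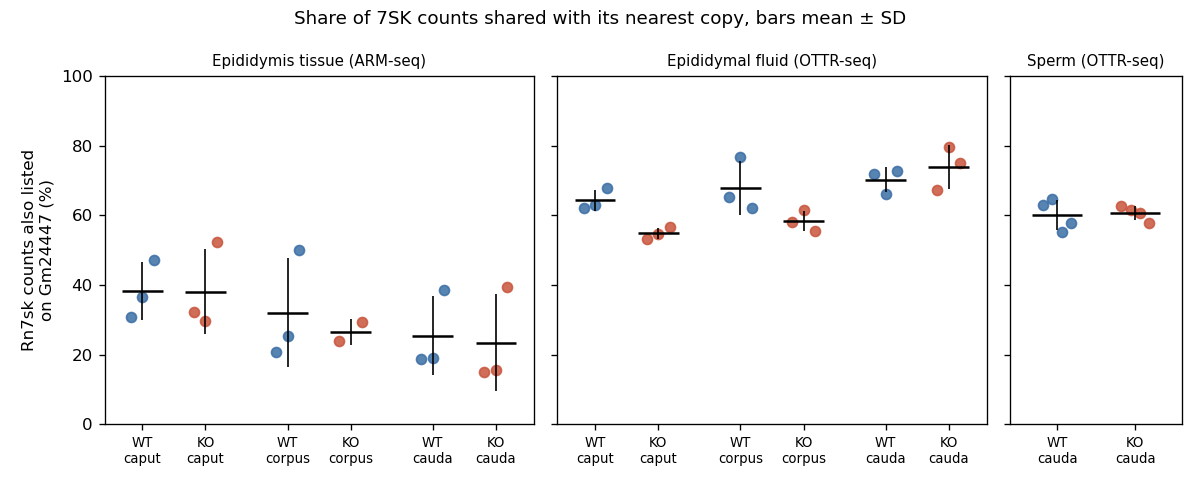
Percent of Rn7sk counts also listed on Gm24447, the copy identical over bases 1 to 241, in every library, with points for libraries and bars for the mean and SD. KO caput and corpus fluid (53.3 to 56.5% and 55.6 to 61.5%) lay below WT (62.1 to 67.7% and 62.0 to 76.7%), and the replicate 3 libraries of tissue, which KO corpus lacked, lay above the others of their group.

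Because the replicate 3 libraries of tissue stood apart in this share, the tissue fits were repeated with replicates 1 and 2 alone, a choice made after the values were seen. Cauda over caput was then 1.57 in WT (adjusted p = 0.0101 in edgeR, which passed) and 2.10 in KO (adjusted p = 0.00177), and WT corpus over caput was 1.5003 (adjusted p = 0.0176, which passed). KO against WT in the cauda was 0.97 (adjusted p = 0.123). Over all other settings the adjusted p ran from 0.0101 to 0.538 for WT cauda over caput and from 0.0176 to 0.774 for WT corpus over caput.

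Fitted on their own, both parts of 7SK were higher in KO corpus fluid. The shared part gave a log2 fold change of 1.23 (adjusted p = 0.0488 by edgeR's quasi-likelihood test) and the rest 1.81 (adjusted p = 0.0157). The call of the shared part was marginal. Counts on Gm26315, a copy identical over bases 5 to 239, gave 1.22 with an adjusted p of 0.0502 in edgeR, which missed the threshold. In caput fluid the parts gave 0.93 (adjusted p = 0.435) and 1.63 (adjusted p = 0.225), and neither part overlapped between KO and WT, nor did either in corpus fluid. In cauda fluid the order of the parts was the other way, at 1.01 for the shared part and 0.59 for the rest, with neither called. After TMM scaling the shared part did not overlap between the genotypes in cauda fluid (54.6 to 161 CPM in WT and 171 to 192 CPM in KO) or in cauda tissue (87.4 to 109 and 123 to 179 CPM), whereas the rest did in both. Relative to unscaled summed counts the shared part overlapped in both. In cauda tissue KO replicate 2 (3526 of 49525719) lay below WT replicate 1 (3201 of 31942688). In cauda fluid KO replicate 3 (1156 of 6533330) lay below WT replicate 2 (1826 of 10206828).

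From caput to cauda the parts were fitted side by side. Their difference was tested only through the share above (adjusted p from 0.475 to 0.713 by exact permutation). With 3 against 3 libraries that test cannot give a p under 0.1, so it could not have passed. In KO fluid the shared part fell by 1.46 on the log2 scale (adjusted p = 0.0196 in edgeR) and the rest fell by 2.66 (adjusted p = 0.00222). In WT fluid they stood at −1.54 (adjusted p = 0.0137) and −1.61 (adjusted p = 0.0236), close to each other. In KO tissue the shared part stood at 0.77 (adjusted p = 0.0805) and the rest rose by 2.06 (adjusted p = 0.0189), and in WT tissue they stood at 0.30 (adjusted p = 0.538) and 1.41 (adjusted p = 0.102). In sperm KO over WT was 0.34 for the shared part and 0.31 for the rest.

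**Figure D4:**
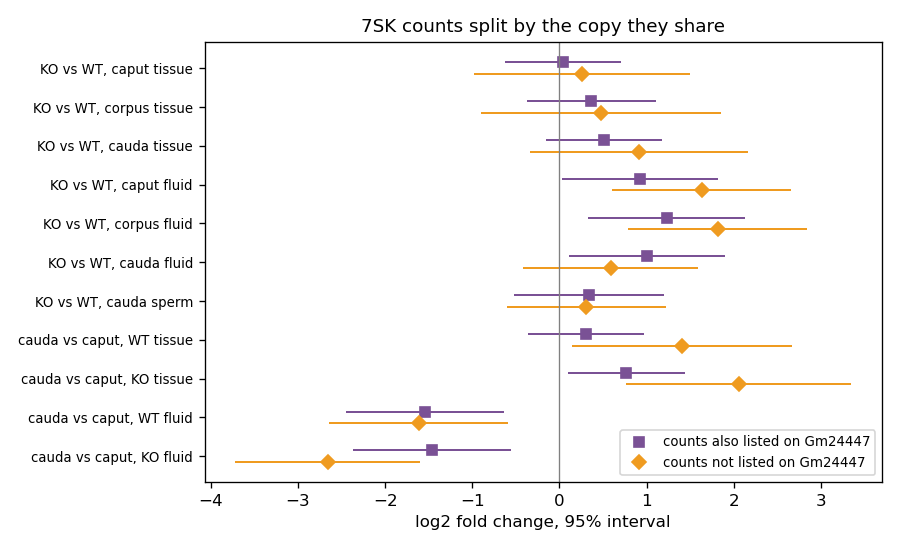
Log2 fold change and 95% confidence interval from edgeR for counts also listed on Gm24447 (squares, the shared 5′ part) and for Rn7sk counts not listed there (diamonds), 1 comparison per line. In caput and corpus fluid KO over WT was 0.93 and 1.23 for the shared part and 1.63 and 1.81 for the rest, and KO tissue cauda over caput was 0.77 and 2.06.

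Other RNAs made by RNA polymerase III were set beside 7SK from a list of 11 symbols, of which 9 were listed in tissue and 8 in fluid and sperm. They include the Y RNAs Rny1 and Rny3, which bind the Ro protein, Rn7s1 and Rn7s2, near-identical copies of the signal recognition particle RNA that share reads, Rn7s6, the vault RNA Vaultrc5, and Rmrp and Rpph1, the RNA subunits of RNase MRP and RNase P. In KO caput fluid 0 of 8 were called in edgeR or DESeq2 and 0 had an unadjusted p under 0.05 in edgeR, with a median log2 fold change of 0.25 beside 0.01 over all RNAs. Rny1 stood at 0.25 (SE 0.388), Rny3 at 0.25 (SE 0.680) and Rn7s2 at −0.35 (SE 0.379) in that segment, where 7SK stood at 1.16.

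In KO corpus fluid 2 of 8 were called higher and 0 lower, where 13.5% of all RNAs tested were called higher, with a median of 0.19 beside 0.10 over all RNAs. Both were Y RNAs, Rny1 at 2.05 (SE 0.403, adjusted p = 0.00235) and Rny3 at 2.04 (SE 0.707, adjusted p = 0.0455) in edgeR. Rn7s2 stood at −0.38 (SE 0.379) and Rn7s6 at −0.41 (SE 0.308), on the other side of 0 from 7SK, and neither was called. Vaultrc5 was not called either, but it was higher in KO without overlap (327 to 599 CPM per kilobase, against 192 to 310 in WT).

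In KO cauda fluid the median of the list was −0.40 beside 0.09, with 0 of 8 called in edgeR and 1 (Rny3, 2.48, SE 0.718) at an unadjusted p under 0.05, which DESeq2 called. From caput to cauda fluid Rn7s6 fell by 1.23 in KO (adjusted p = 0.00754), the 1 of 8 called lower where 14.5% of all RNAs were. In WT fluid Rny3 fell by 3.44 (adjusted p = 0.00264) and Vaultrc5 by 1.42 (adjusted p = 0.00863), the 2 of 8 called lower where 15.4% of all RNAs were. Rmrp stood at 0.51 in WT (SE 0.399) and at −0.20 in KO (SE 0.398) for the same contrast.

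**Figure D5:**
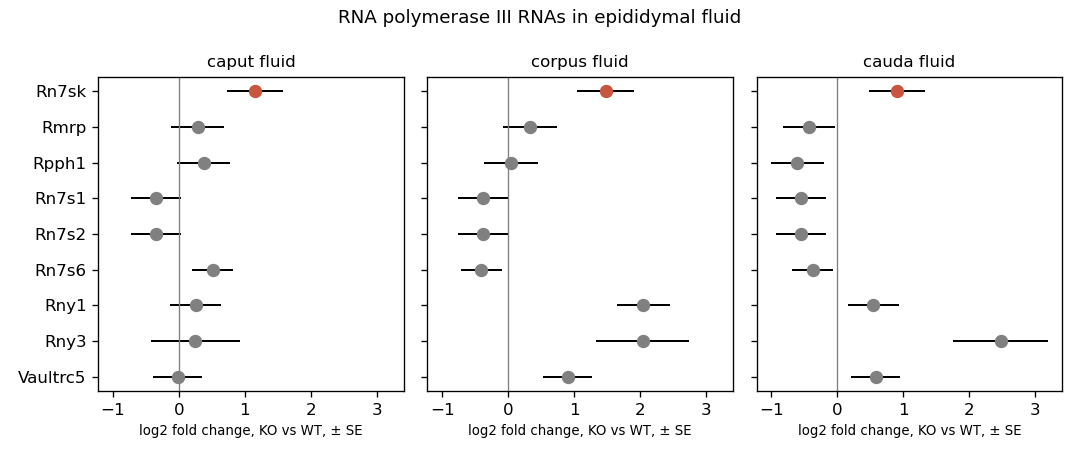
Log2 fold change of KO over WT with its SE from edgeR for 7SK (coloured) and the other listed RNA polymerase III RNAs (grey) in caput, corpus and cauda fluid, with a line at 0. In corpus fluid 7SK (1.48), Rny1 (2.05) and Rny3 (2.04) stood above Rn7s2 (−0.38) and Rn7s6 (−0.41). In that segment Vaultrc5 was also higher in KO than in WT, without overlap of libraries.

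In KO cauda tissue the list had a median of 1.09 over WT beside 0.12 over all RNAs, with 0 of 9 called in edgeR, 6 higher at an unadjusted p under 0.05 and 3 called higher by DESeq2 (Rn7s1, Rn7s2 and Rn7s6). Over all RNAs of this contrast edgeR called 30 of 3488 (0.860%) and 527 had an unadjusted p under 0.05, and DESeq2 called 69 higher and 106 lower of 2261. Rn7s2 stood at 1.41 (SE 0.412), Rn7s6 at 1.45 (SE 0.458) and Rny1 at 1.04 (SE 0.334), each with an adjusted p of 0.124 or more, beside 0.83 for 7SK. Apart from DESeq2, the list was fitted under TMM alone, and 7SK in this contrast was at 0.15 by means of unscaled summed counts. From caput to cauda in KO tissue 3 of 9 were called higher, where 17.1% of all RNAs were, Rny1 at 1.53 (SE 0.338, adjusted p = 0.00265), Rmrp at 1.56 (SE 0.330, adjusted p = 0.00192) and Rpph1 at 1.24 (SE 0.386, adjusted p = 0.0242), and Rn7s2 stood at 0.46 (SE 0.405). In KO sperm the median was 0.66 beside −0.00 over all RNAs, with 0 of 8 called in edgeR or DESeq2 and 1, Vaultrc5, at an unadjusted p under 0.05 in edgeR.

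A second list held 16 symbols of U RNAs made by RNA polymerase II, such as Rnu1a1 and Rnu2-10, the U1 and U2 RNAs of the spliceosome, of which 15 were listed. In fluid 19 of their entries were tested, and 0 were called between KO and WT in any segment in edgeR or DESeq2. Without adjustment, p was under 0.05 for 3 in the caput (lower), 1 in the corpus (higher) and 1 in the cauda (lower). Of all 2023 RNAs tested, 214, 684 and 188 had such a p in these segments in turn. The share of all RNAs called by edgeR was 0%, 19.7% and 0%. Medians of the list were 0.26 in the caput, 0.29 in the corpus and −0.14 in the cauda. Rnu1a1 stood at −0.61 (SE 0.361) in KO caput fluid and at 0.13 (SE 0.360) in KO corpus fluid. In KO cauda tissue 0 of 20 entries were called over WT in edgeR, 12 were higher and 1 lower at an unadjusted p under 0.05, DESeq2 called 1 higher and 1 lower, and the median was 0.92, beside 0.860% called and 527 of 3488 at an unadjusted p under 0.05 over all RNAs. This list too was fitted under TMM alone apart from DESeq2.

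Levels between RNAs were compared per kilobase of transcript. Reads were of small RNAs and fragments, so counts need not grow with transcript length. The division raises short RNAs such as Rny1 (112 bases) relative to longer ones such as Rn7s1 (300 bases). In WT caput tissue the median level was 610 CPM per kb for 7SK, 2183 for Rn7s1, 1478 for Rn7s6, 367 for Rny1 and 82.2 for Rmrp. In WT caput fluid it was 1137 CPM per kb for 7SK, 21011 for Rn7s1, 2274 for Rn7s6 and 57071 for Rny1. The Y RNA stood first of these per kilobase, an order that depends on the division by length. In KO caput fluid 7SK was at 3018 CPM per kb and Rn7s6 at 2946. In KO sperm 7SK was at 1883 CPM per kb, Rn7s1 at 4178 and Rny1 at 5400.

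The RNAs whose log2 CPM followed 7SK most closely over libraries differed by table. Over the 17 tissue libraries these were the small nucleolar RNA Gm23547 (Pearson r 0.952), Scarna10 (0.939) and Rmrp (0.936). Over the 18 fluid libraries the 5 most alike were all 7SK copies that share reads with it, led by Gm24146 (0.994), and outside the copies, a choice made after the values were seen, the highest was Gm24951, annotated as a miRNA (0.916). Over the 8 sperm libraries they were Snora28 (0.992) and Snord73a (0.989). These coefficients describe libraries that share their scaling and differ in depth, and no test was made of them.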

How the data were processed

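The deposited values were whole read counts per RNA, produced by the authors from PNK-treated RNA with their version of the tRAX pipeline. Adapters were trimmed with cutadapt, UMI-tools is named in the submitters' processing notes, and reads were mapped with bowtie2, reporting up to 100 matches, to mm10 (GRCm38), mature tRNAs and rRNA sequences. Reads with equally good matches were counted on every one of those features. A read of the shared 5′ part can match over 100 places, so counts on single 7SK copies can be incomplete.

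Each table was fitted on its own with edgeR 4.0.16 in R 4.3.3 (quasi-likelihood test, TMM, filterByExpr at a minimum count of 10 and total of 15, 1 mean per group, Benjamini-Hochberg over all RNAs tested). RNAs tested numbered 3488 (tissue), 2023 (fluid) and 2480 (sperm). Calls needed an adjusted p under 0.05 with a log2 fold change beyond 1 in either direction. The script was tested on simulated counts. Sequences came from the GENCODE transcripts of GRCm38, and copies were found by BLAST at an expect value up to 1e-10. Shares were compared by 2-sided exact permutation tests. Alternatives were DESeq2 1.42.0, other scalings, no filter, the groups of a comparison alone, replicate blocks and leaving out each library. Where the labels do not say that libraries came from separate animals, p-values measure only the spread between these libraries.

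Rn7sk, the lists of polymerase III and polymerase II RNAs (named whole, with the highest-count members described) and the markers were chosen with earlier results of these data known. The RNAs with the highest Pearson r of log2 CPM (prior count 2) were named as most alike. Same-numbered libraries deviated together (every pair's correlation over 0.1, with 3 pairs) between all segments of WT tissue, between KO caput and cauda tissue, between WT and KO cauda tissue and between KO corpus and cauda fluid, with correlations from 0.131 to 0.670. Labels do not state what a number marks.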

Additional observations from a re-analysis of the deposited data

Results flagged for a closer look

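In KO cauda sperm, replicate 1 stood apart from the other 3 libraries when 7SK was given as CPM of unscaled summed counts. It stood at 373, against 641 to 686 in the others, and its gap to the nearest of them was 0.856 of the range of the group, above the 95% limit of Dixon's test for 4 samples. Chance alone gives such a value in about 1 group in 20 for a single check. Both sperm groups were screened on CPM, unscaled CPM, CPM outside tRNA and rRNA entries and the share on Gm24447. Some such value over the whole screen is therefore likelier than that. After TMM scaling the same library, at 586 CPM, was close to replicates 2 and 3, at 617 and 629 CPM.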

How the results depend on the processing

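Depth, the mixture of tRNA and rRNA reads and the copies are limits on reading these values. The values changed with the scaling and with the split by counts shared with Gm24447. The part of low counts in them was not tested. Of 286 refits of the 7SK fold changes under another setting, 256 kept direction and side of the threshold, and of 183 refits without 1 library, 159 did. The cause was not tested for any of the rest. With summed counts in place of TMM, KO over WT in caput tissue was −0.077, KO cauda over caput tissue 0.73, KO cauda over corpus tissue −0.019, the difference of the KO effect between cauda and corpus tissue −0.095, and KO over WT in corpus fluid 1.48 (adjusted p = 0.0537). With TMM from RNAs other than tRNA and rRNA entries, KO cauda over caput tissue was 1.02, KO cauda over corpus tissue −0.0041, the difference of the KO effect between cauda and corpus −0.0098 in tissue and 0.066 in fluid, that between corpus and caput fluid −0.47, KO over WT in corpus fluid 0.65 and WT cauda over caput fluid −1.13. With summed counts outside those entries, a scaling added after the data were seen, KO over WT was −0.14 in caput tissue, 1.07 in corpus fluid and −0.11 in sperm, cauda over caput 0.83 in KO tissue and −0.96 in WT fluid, and the difference of the KO effect between corpus and caput fluid −0.40. With the groups of a comparison alone, cauda over caput was 1.18 in WT tissue and −1.47 in WT fluid. Counts listed on Gm24447, also added later, gave cauda over corpus of −0.15 in WT and −0.0063 in KO tissue, cauda over caput of 0.77 in KO tissue, and 0.081 for the KO effect in cauda less caput fluid. Replicates 1 and 2 of tissue alone gave −0.015 for KO over WT in the corpus, 1.5003 and 1.57 for WT corpus and cauda over caput, −0.46 for the difference of the KO effect between corpus and caput, and 3.46 points for the KO difference of the share on Gm24447 in the corpus. Measured on Gm26315, another copy, that difference in caput tissue was 0.0447 points. DESeq2 gave −1.44 for KO cauda over corpus fluid, and −1.42 with a replicate block.

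The replicate number as a block in edgeR changed no call of 7SK, giving 1.58 for KO cauda over caput tissue, 1.56 for KO over WT in corpus fluid, −1.84 and −1.87 for cauda over caput in WT and KO fluid, and −1.503 for KO cauda over corpus fluid, where 52 RNAs called lower and 8 higher became 12 and 0. Where the numbers pair the samples, the block also changed the RNAs called in WT tissue, from 98 lower and 314 higher to 131 and 550 for corpus over caput, and from 6 and 113 to 53 and 258 for cauda over corpus.

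Without each library in turn, KO over WT ran from −0.13 to 0.40 in caput, from 0.09 to 1.02 in corpus and from 0.05 to 1.19 in cauda tissue, from 1.17 to 1.47 in caput, from 1.17 to 1.64 in corpus and from 0.60 to 1.76 in cauda fluid, and from 0.05 to 0.74 in sperm. In tissue, corpus over caput ran from 0.39 to 1.22 in WT and from 0.93 to 1.53 in KO, cauda over caput from 0.85 to 1.46 and from 1.12 to 2.11, and cauda over corpus from −0.11 to 0.68 and from −0.030 to 0.92. In fluid, corpus over caput ran from −0.82 to −0.40 in WT and from −0.61 to −0.22 in KO, cauda over caput from −2.32 to −1.17 and from −2.04 to −1.71, and cauda over corpus from −1.68 to −0.60 and from −1.68 to −1.16. The WT cauda over corpus fluid value passed the test without WT cauda replicate 2 (−1.68, adjusted p = 0.0209, range 0.0209 to 0.494). Differences of the KO effect ran from −0.019 to 0.83 (corpus and caput), −0.11 to 1.08 (cauda and caput) and −0.27 to 0.85 (cauda and corpus) in tissue, and from −0.086 to 0.49, −0.66 to 0.46 and −0.88 to 0.37 in fluid. Without KO corpus tissue replicate 1 or 2 the lone library was assumed to vary like the other groups. The share on Gm24447, KO less WT in percentage points, ran from −7.18 to 4.39 in caput, −11.1 to 3.46 in corpus and −10.1 to 4.53 in cauda tissue, from −10.5 to −7.71, −12.5 to −5.19 and 0.848 to 7.01 in the same segments of fluid, and from −1.14 to 2.01 in sperm. Between segments it ran in tissue from −15.1 to −0.563 and −15.7 to −4.47 for corpus less caput, −19.4 to −8.29 and −22.7 to −7.65 for cauda less caput and −13.2 to 2.30 and −11.2 to 0.984 for cauda less corpus, in WT and KO in turn, and in fluid from −0.682 to 6.67 and 2.03 to 4.96, 4.76 to 8.06 and 16.3 to 22.4, and −0.701 to 6.65 and 12.7 to 18.8.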
